A study of Mus musculus with 16 samples.

Results

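Broad H3K27Ac stretches were defined from the H3K27Ac region lists of XX (female) and XY (male) mouse embryonic stem (ES) cells. The regions of both lists on chromosomes 1 to 19 were merged where they overlapped or touched, and a merged stretch was kept when it was at least 15 kb wide from start to end and held regions of both lists. Of 29351 merged stretches, 21475 held regions of both lists, and 1560 of these (7.26%) were 15 kb or wider. Width and presence in both lists were therefore fixed by the choice, and the spans and edges that go with them are given as description. The study profiled H3K27Ac, H3K4Me1 and H3K27Me3 by chromatin immunoprecipitation and sequencing (ChIP-seq), with 16 samples in all. All lines were C57BL/6 x CAST/EiJ F1 hybrids, given as passages 7 to 10. They were cultured in serum and leukemia inhibitory factor (LIF) on inactivated C57BL/6 embryonic fibroblasts from pooled embryos of either sex. These feeder cells were depleted before the harvest, and the paper reports a small remainder. The XX group and the XY group had 2 lines each for every mark, and each sex had 1 IgG and 1 input library. For each mark the authors deposited 1 region list per sex, without heights, scores or read counts, so no list had a replicate. No test between the sexes was made, the depth behind a region is unknown, and a mark present in fewer cells cannot be told apart from a weaker mark in all cells.

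H3K27Ac, acetylation of lysine 27 of histone H3, is found at promoters and enhancers in use. H3K4Me1 is found at enhancers, including those not yet active, and on both sides of active promoters, where the nucleosomes at the start itself carry H3K4Me3 instead. H3K27Me3 is placed by Polycomb repressive complex 2 and cannot sit on the same histone tail as H3K27Ac. In ES cells, wide clusters of active enhancers are known at genes of the pluripotency network, where factors such as Pou5f1, Sox2, Nanog, Esrrb and Klf proteins bind. All regions of the 6 lists started and ended on a grid of 200 bp, so no edge is known more finely than that.

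Sequences of the broad stretches are shown first for the ES cell markers. A gene was counted at a stretch if any of its annotated transcripts started there, even where its 5′ end lay outside. Over all autosomal protein-coding genes, 7.19% had a transcription start site (TSS) in a broad stretch, as did 10 of 23 housekeeping genes (43.5%). Among the 10 markers (Pou5f1, Sox2, Nanog, Klf4, Esrrb, Zfp42, Tfcp2l1, Sall4, Lin28a and Dppa5a), 9 had a TSS in a broad stretch, and Klf4 was the nearest gene of one. In each of these stretches the window of 300 bases with the most different motifs and no annotated exon was sought, with the exact letters ATTTGCAT (octamer of Pou5f1), TCAAGGTCA (Esrrb), CCACACCC (Klf), TTCCNGGAA (Stat) and GGTCTCTAA (Prdm14) on both strands. In 4 markers a window held 2 different motifs, and 5 others held 1. The windows with 2 are printed from the mm9 genome, plus strand, with the motif letters in capitals.
Esrrb, chr12:87842563-87842862: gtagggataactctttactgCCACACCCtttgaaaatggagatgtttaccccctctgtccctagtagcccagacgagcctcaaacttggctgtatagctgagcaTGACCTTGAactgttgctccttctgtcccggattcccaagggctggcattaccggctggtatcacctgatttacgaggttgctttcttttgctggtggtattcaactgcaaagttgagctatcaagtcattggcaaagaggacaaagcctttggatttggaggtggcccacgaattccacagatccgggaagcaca
Sall4, chr2:168571526-168571825: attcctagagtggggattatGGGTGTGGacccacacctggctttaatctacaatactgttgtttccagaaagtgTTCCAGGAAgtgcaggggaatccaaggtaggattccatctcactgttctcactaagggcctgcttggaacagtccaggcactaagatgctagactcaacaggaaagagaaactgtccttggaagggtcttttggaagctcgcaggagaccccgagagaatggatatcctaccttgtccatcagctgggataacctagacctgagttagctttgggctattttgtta
Tfcp2l1, chr1:120524016-120524315: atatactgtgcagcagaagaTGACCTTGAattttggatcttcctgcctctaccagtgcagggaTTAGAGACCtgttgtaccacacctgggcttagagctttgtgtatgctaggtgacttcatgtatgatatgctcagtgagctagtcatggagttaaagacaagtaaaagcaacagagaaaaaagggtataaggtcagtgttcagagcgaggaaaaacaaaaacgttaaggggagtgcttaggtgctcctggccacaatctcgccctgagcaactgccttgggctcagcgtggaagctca
Zfp42, chr8:44392411-44392710: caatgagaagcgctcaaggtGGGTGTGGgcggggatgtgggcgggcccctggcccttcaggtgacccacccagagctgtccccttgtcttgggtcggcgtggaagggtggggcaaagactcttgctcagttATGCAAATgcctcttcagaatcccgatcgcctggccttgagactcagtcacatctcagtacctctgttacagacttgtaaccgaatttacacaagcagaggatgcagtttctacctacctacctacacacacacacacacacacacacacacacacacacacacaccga
The Esrrb window lay in an intron of Esrrb, an orphan nuclear receptor, 141 kb downstream of its most upstream annotated start, and held a Klf and an Esrrb match. The Sall4 window lay outside protein-coding genes, 21.8 kb from the start of Sall4 and beyond its 3′ end, with a Klf and a Stat match. The window of Tfcp2l1, a transcription factor of naive pluripotency, was centred 0.357 kb upstream of its start and held an Esrrb and a Prdm14 match. The window of Zfp42 (Rex1), a zinc finger marker of ES cells, was centred 0.197 kb upstream of its start, with an octamer and a Klf match. Its 300 bases were outside H3K4Me1 in the XX list and inside it in the XY list, whereas the windows of the other 3 genes were inside H3K4Me1 in both lists. A match is a description of letters and not a measured binding site.

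The broad stretches covered 37.4 Mb, which was 1.51% of the autosomes. They took up 24.9% of all XX and 25.7% of all XY bases in H3K27Ac regions. Their median width was 20.2 kb. A width of 15 to 20 kb was found in 771, 20 to 30 kb in 522, 30 to 50 kb in 203, and 50 kb or more in 64. The narrowest were 15199 bp wide, with 48 stretches at that width. The width just under the limit, 14999 bp, was found for 40. Just inside the limit were stretches at Lgr4, near Slc20a1 and near Tbl1xr1, and those just outside it included stretches near A330017A19Rik and Klf9. Because the width is that of both lists together, 1178 spanned 15 kb in each list, 197 in the XX list only, 124 in the XY list only, and 61 in neither. In 761 stretches each list held a single region of at least 15 kb. The number per 10 Mb went from 3.71 on chromosome 12 to 12.5 on chromosome 11. Protein-coding genes numbered 13.6 per Mb on chromosome 11 and 5.81 per Mb on chromosome 12. On chromosome 7, which had the most genes per Mb (13.6), broad stretches numbered 7.54 per 10 Mb. The part of gene density in these numbers was not tested. The median gap to the next broad stretch was 266.6 kb, yet 269 of 1541 gaps were shorter than 20 kb.

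The widest stretch, 83.8 kb on chromosome 11 (chr11:69455201-69538999), held transcript starts of 9 protein-coding genes. These included Fxr2, an RNA-binding protein, Sox15, a Sox family transcription factor, and Eif4a1, a helicase of translation initiation. The 5′ end of Fxr2, at 69446492, lay outside the stretch. The XX regions spanned 83.2 kb of it as 1 region and the XY regions 76.4 kb as 3 regions. The stretch at Frmd8 (80.8 kb, chr19:5785001-5865799) also held the long non-coding RNA genes Malat1 and Neat1, and its spans were 80.8 kb in XX and 64.2 kb in XY. The stretches at Ncoa3, a nuclear receptor coactivator (78.4 kb), and at Usp7, a deubiquitinase (77.0 kb), spanned 77.6 and 76.8 kb in XX and 75.4 and 74.6 kb in XY. The stretch of Cbx7 and Apobec3 (76.4 kb, chr15:79720601-79796999) spanned 76.2 kb in XX and 75.8 kb in XY, and Cbx7 is a chromodomain subunit of Polycomb repressive complex 1. Others among the 20 widest included those of Smarcad1, Actn4, Mybl2, Rbpms, Klf5, Cbx1, Cd9, Trim71, Hsp90ab1, Mkrn1, Macf1 and Slc6a6. Of these, Trim71 encodes an RNA-binding repressor, Hsp90ab1 a chaperone, and Mybl2 a cell cycle transcription factor. In these 20, the bases covered in both lists ran from 78.5% at Frmd8 to 98.9% at Klf5, and H3K4Me1 covered at least 85.9% of the bases in each list.

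**Figure D1:**
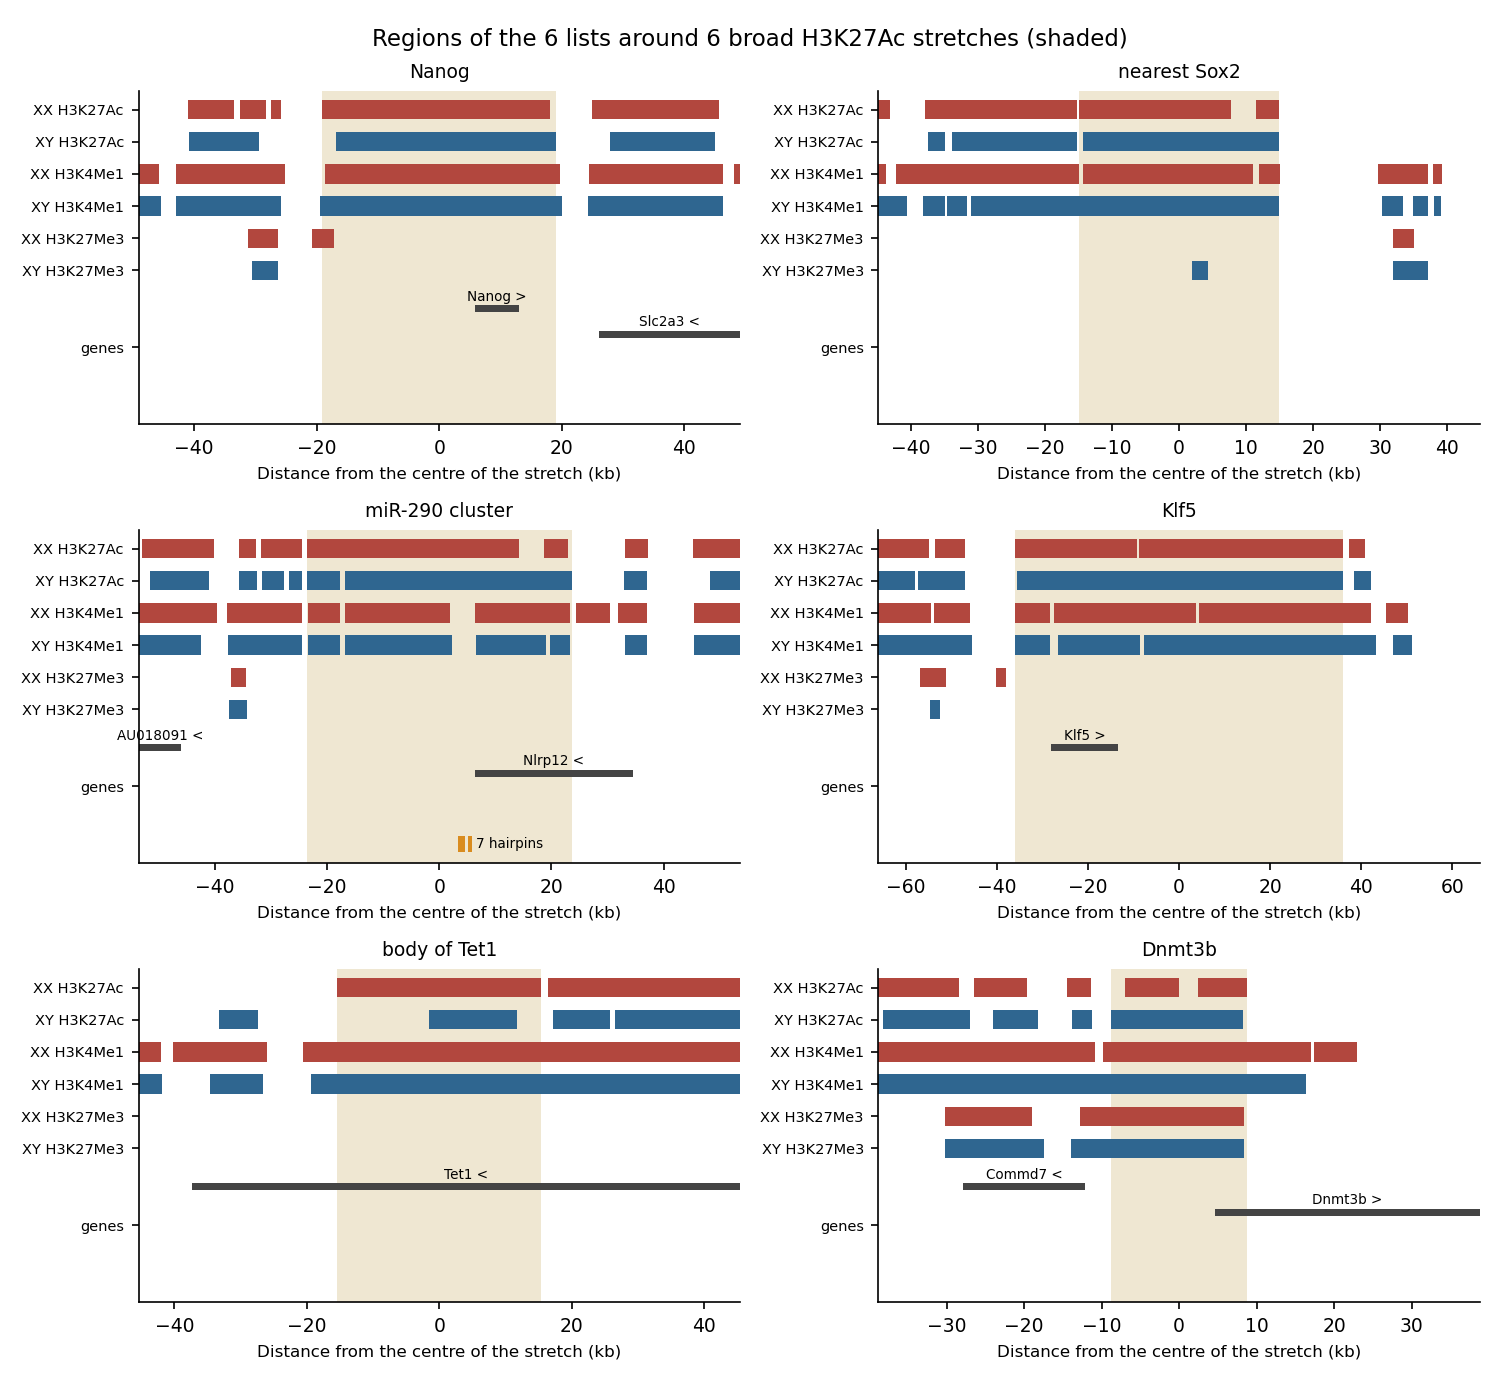
Regions of the 6 lists around 6 broad stretches, with the distance from the centre of each stretch in kb on the horizontal axis, XX regions in red, XY regions in blue and protein-coding genes as grey bars with an arrow for the direction of transcription. The stretch itself is shaded, and orange marks are the 7 microRNA hairpins. The 2 H3K27Ac lists end within 1 kb of each other on both sides at Klf5 and the miR-290 cluster, while in the body of Tet1 the XX region spans 30.8 kb and the XY region 13.4 kb. At Dnmt3b, H3K27Me3 covers 97.7% of the stretch in both lists.

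Inside the broad stretches the lists covered largely the same bases. Of all bases, 93.5% were in XX regions, 91.0% in XY regions and 84.5% in both. In the 19915 narrower stretches held by both lists, 73.6% were in both, and in those of 10 to 15 kb 76.2%. Within the broad class the share rose with width, from 80.4% at 15 to 20 kb to 91.0% at 50 kb or more. At least 90% of the bases were in both lists in 564 stretches, and under 50% in 42. A list often fell into pieces: the XX list in 480 and the XY list in 540 of the 1560 stretches, with a median gap of 1001 bp between pieces in each. A single region in each list was found in 739.

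The outer edges of a list were taken as its first start and last end in a stretch. The edges of the XX and XY lists differed by a median of 800 bp over the 3120 edges. They were identical at 12.0%, within 200 bp at 28.0%, within 1 kb at 63.8%, and more than 5 kb apart at 4.23%, with 15.2 kb as the largest difference. Both edges lay within 1 kb in 628 stretches (40.3%, exact binomial 95% interval 37.8 to 42.7, counting error only). The same share was 65.2% over all stretches held by both lists, 46.3% at 5 to 10 kb and 39.2% at 10 to 15 kb. Since edges are on a grid and a narrow stretch leaves no room for a large difference, these shares are given by width class. Only 1 edge was within 1 kb in 735 stretches and no edge in 197. In proportion to width, the median edge difference was 3.13% in the broad stretches and 5.88% at 10 to 15 kb. In absolute terms the median was 800 bp in both classes.

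**Figure D2:**
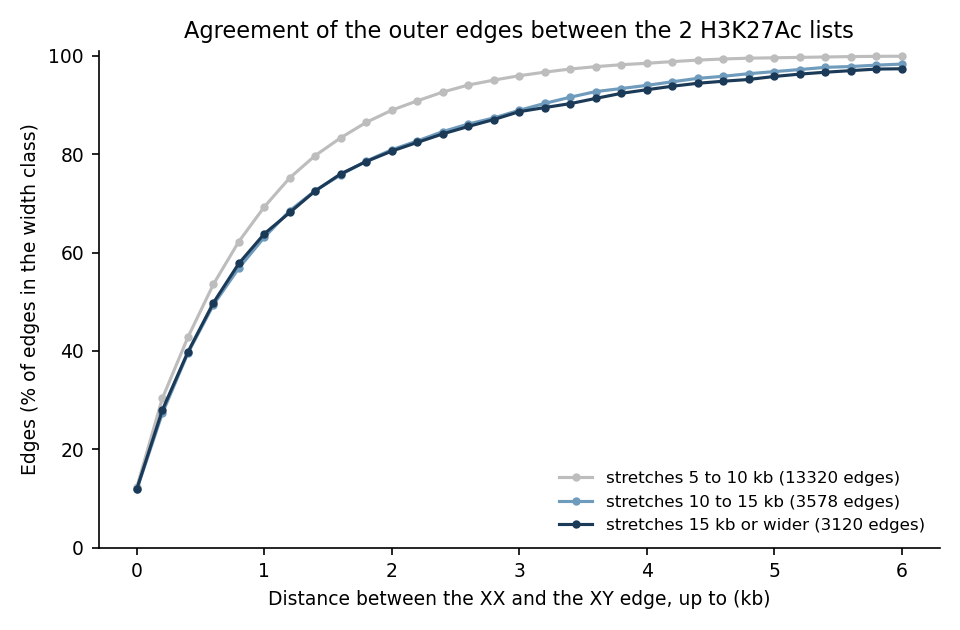
Share of outer edges (vertical axis, percent of the edges of a width class) at which the XX and XY edges lie within the distance on the horizontal axis, in kb. The curves of stretches 10 to 15 kb and 15 kb or wider run together, with 63.1% and 63.8% of edges within 1 kb, and that of stretches 5 to 10 kb is higher, at 69.3%.

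The XX list reached further out at 1532 of the 3120 edges, the XY list at 1213, and both stopped at the same place at 375. Accordingly, the XX span was the wider one in 852 stretches, the XY span in 632, and 76 were equal. In the narrower stretches the order was the other way, with XX further at 15627 edges and XY at 16099. The median spans in the broad class were 19.4 kb for XX and 19.0 kb for XY. Each list was also used alone to choose regions of 15 kb or more, so that the other list was not part of the choice. Of 1153 such XX regions, 1149 were overlapped by an XY region, 780 (67.6%) met an XY region that was itself at least 15 kb wide, and the median share of bases covered by the XY list was 93.4%. Of 1051 such XY regions, 1050 were overlapped, 787 (74.9%) met an XX region of at least 15 kb, and the median covered share was 96.2%. Of the regions of 5 to 15 kb, 94.4% in the XX list and 96.6% in the XY list were overlapped by the other list. Their median covered shares were 88.4% for XX regions and 89.7% for XY regions. These counts have no replicate, and the lists differ in length, with 27785 XX and 25301 XY autosomal regions.

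**Figure D3:**
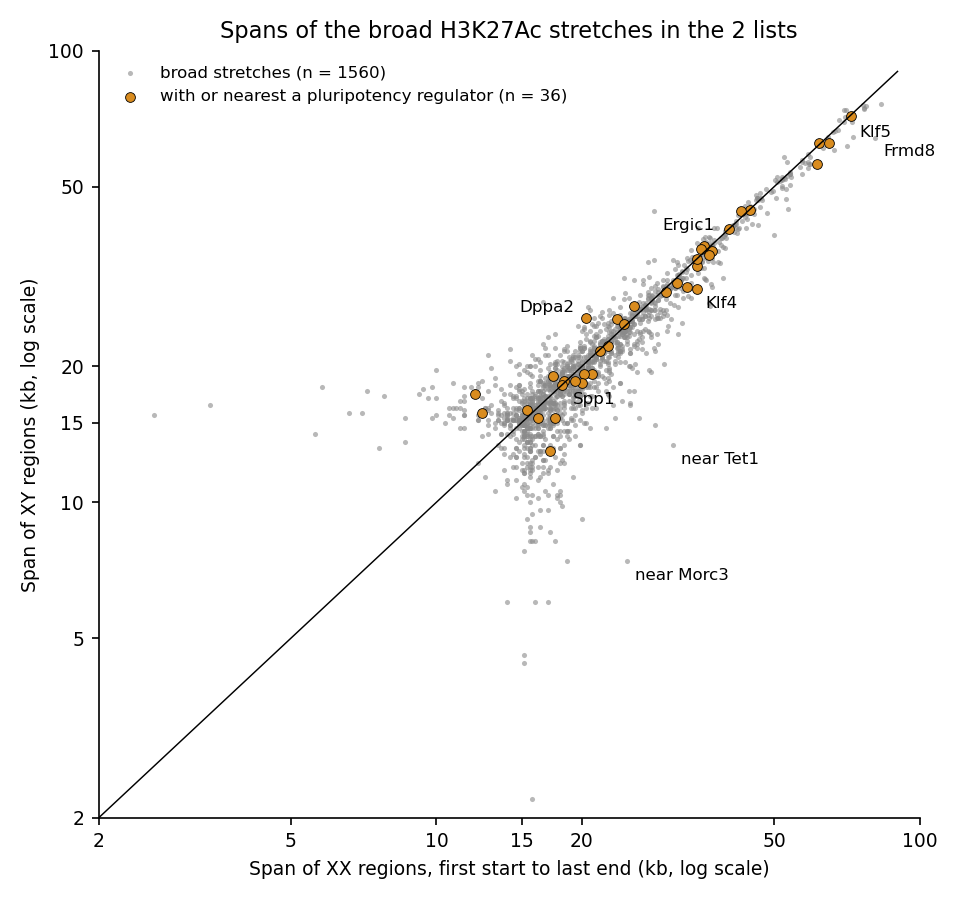
Span of the XX regions (horizontal) against the span of the XY regions (vertical) in each of the 1560 broad stretches, both in kb on log scales, with the line of equal spans. Orange points mark 36 stretches with the start of a pluripotency regulator inside or as nearest gene. Most points lie along the line, and the stretches near Tet1 (30.8 and 13.4 kb), near Morc3 (24.8 and 7.40 kb) and at Frmd8 (80.8 and 64.2 kb) fall below it.

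The largest total edge difference, 17.4 kb over both edges, was found in the body of Tet1, which encodes a 5-methylcytosine dioxygenase, and equally near Morc3. In Tet1, at chr10:62289201-62319999, the XX region spanned 30.8 kb and the XY region 13.4 kb, so that 43.5% of the bases were in both lists. H3K4Me1 covered 100% of this stretch in each list. The neighbouring stretch over the Tet1 start (49.4 kb) had spans of 49.2 kb and 48.6 kb. The stretch near Morc3 spanned 24.8 kb in XX and 7.40 kb in XY, with 40.3% of its bases in H3K27Me3 in the XX list and none in the XY list. The XX span was also the longer one at Ctbp2, a transcriptional corepressor (28.4 against 14.8 kb), at Dst (38.6 against 33.8 kb) and near Nav1 (15.8 against 2.20 kb). The XY span was the longer one at Ergic1 (44.2 against 28.2 kb), Numa1 (15.4 against 10.8 kb), Acadvl and Dlg4 (16.4 against 3.40 kb) and Vmp1 (15.6 against 2.60 kb). Both edges were identical in 26 stretches. The widest of these were at Fam129b (41.4 kb), at Rest, a repressor of neuronal genes (35.0 kb), and 81.2 kb from the start of Myc (34.6 kb). Identical edges were also found at Trak1 (27.2 kb), Fcgr3 (24.4 kb), near Ubxn7 and at Spp1, which encodes osteopontin (18.2 kb), and in these 4 stretches 100% of the bases were in both lists.

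H3K4Me1 was not used in the choice. Both H3K4Me1 lists had a region in 1551 of the 1560 broad stretches (99.4%, exact binomial 95% interval 98.9 to 99.7), beside 73.2% of all stretches held by both H3K27Ac lists. A wider stretch meets more regions by width alone, and the share rose from 20.2% under 2 kb to 69.2% at 2 to 5 kb, 85.7% at 5 to 10 kb and 95.6% at 10 to 15 kb. By bases, H3K4Me1 covered 94.8% of the bases of the broad stretches in XX and 94.4% in XY, and 88.5% and 89.0% at 10 to 15 kb. At least 50% of the bases were covered in each list in 1533 broad stretches (98.3%), beside 67.5% of all stretches held by both lists. Both lists together left 2.86% of the bases uncovered, and 404 stretches (25.9%) lay wholly in H3K4Me1 in both lists. Exactly 1 H3K4Me1 region, of whatever extent, met 919 stretches in XX and 896 in XY.

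Around the stretches H3K4Me1 went on beyond the acetylation. It reached or passed both outer edges in 1118 stretches (71.7%) in XX and 1039 (66.6%) in XY. Over the 3110 XX and 3108 XY edges of all stretches with H3K4Me1, including those it did not reach, its outermost region ended a median of 2600 bp and 2200 bp outside the edge. In the first 500 bp inside the edge, 86.1% of the bases were in XX and 83.2% in XY H3K4Me1 regions. In the first 500 bp outside it, the shares were 76.8% and 74.0%, and in the outermost bin, up to 10 kb outside, they were 63.1% and 58.2%. Some of that ground belongs to other H3K27Ac stretches. In the 30.2 Mb within 15 kb of a broad stretch that no H3K27Ac list covered, H3K4Me1 took up 49.8% in XX and 43.7% in XY. Around stretches of 5 to 15 kb it took up 30.8% and 28.7% of the ground chosen in the same way.

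**Figure D4:**
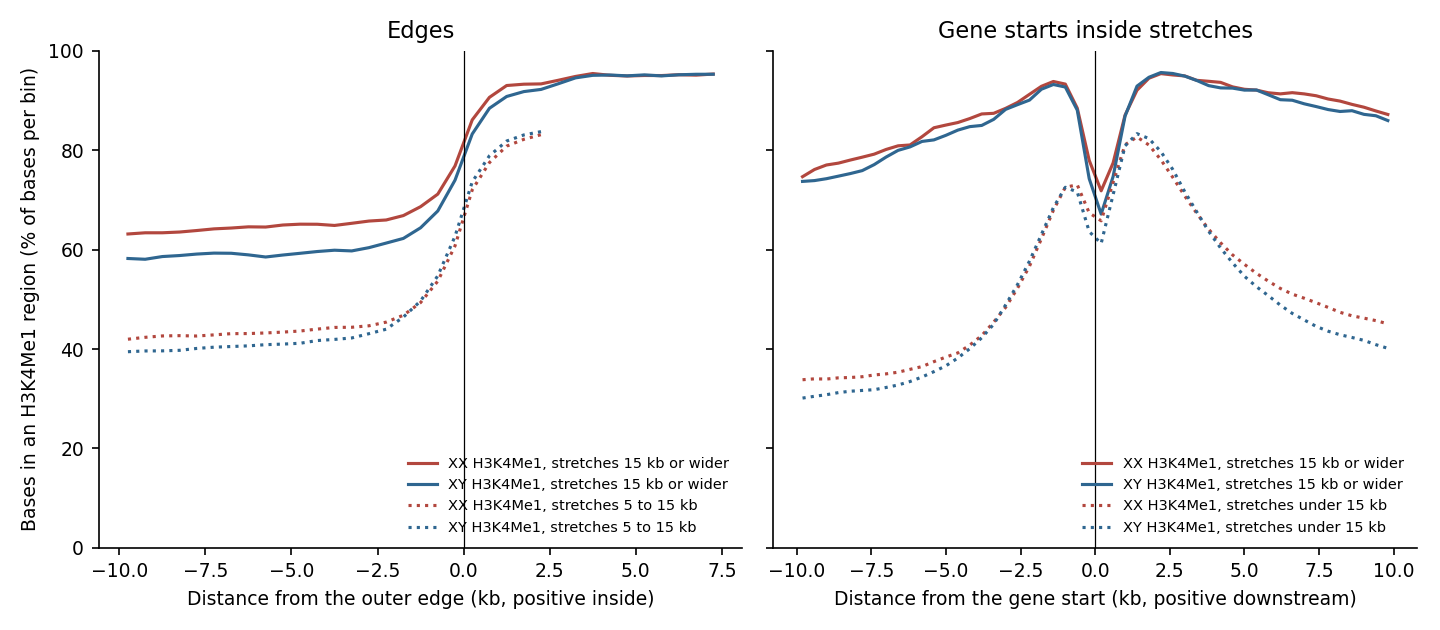
Share of bases in H3K4Me1 regions (vertical axis, percent per bin) by distance from the outer edge of a stretch in kb (left, 3120 edges for stretches 15 kb or wider) and by distance from a protein-coding gene start in kb (right, 1379 starts in broad stretches). Solid lines are broad stretches, dotted lines those of 5 to 15 kb (left) or under 15 kb (right), red is XX and blue is XY. H3K4Me1 is at about 95% deep inside broad stretches and drops to 71.8% in XX and 67.1% in XY just downstream of gene starts.

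H3K4Me1 was interrupted at a part of the gene starts and covered most of them. Of 1379 protein-coding genes with their 5′ end in a broad stretch, the start base was in an H3K4Me1 region for 73.0% in XX and 67.7% in XY, and in neither list for 267 (19.4%). In the bin centred 0.2 kb downstream, 71.8% of the bases were covered in XX and 67.1% in XY, against 95.4% and 95.6% at 2.2 kb downstream. H3K27Ac regions covered 97.9% and 98.8% in that first bin, but high cover there follows from choosing starts inside H3K27Ac stretches. In narrower stretches, 2085 of 8334 gene starts (25.02%) were in neither H3K4Me1 list. The starts in neither list were richer in CpG dinucleotides, with a median of 32 in the 300 bases around the start (quartiles 24 and 40, n = 267). The median was 19 (quartiles 9 and 27) for the 828 starts in both lists and 27 for the 284 in 1 list. At least 20 CpGs were found in 88.0% of the starts in neither list and 47.6% of those in both. The 300 bases upstream of the start of Klf5, which was in neither list and is the only protein-coding gene start in its stretch, are shown 5′ to 3′ with CpG in capitals.
Klf5, chr14:99697610-99697909, plus strand: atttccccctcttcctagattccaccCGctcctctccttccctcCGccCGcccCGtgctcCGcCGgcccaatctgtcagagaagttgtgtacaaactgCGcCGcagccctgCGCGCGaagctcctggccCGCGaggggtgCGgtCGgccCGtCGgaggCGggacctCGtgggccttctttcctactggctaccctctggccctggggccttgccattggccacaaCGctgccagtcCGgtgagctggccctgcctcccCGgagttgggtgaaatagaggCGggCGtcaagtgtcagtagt
This window held 24 CpGs.

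A few broad stretches lacked H3K4Me1 in 1 or both lists. Of the 9 such stretches, 2 had none in either list (near Cyp2c69 and near Rpl29-ps5), 4 had it in the XX list only and 3 in the XY list only. At 2610305D13Rik the share of bases in H3K4Me1 was 100% in XX and 0% in XY, and near Gal3st2 it was 0% in XX and 71.3% in XY. Because reads were 50 bases long, stretches of 50 bases were taken every 200 bases and searched on both strands of the assembly. Of those in 2610305D13Rik, 100% occurred more than once, near Vmn2r-ps100 80.6% and near Gal3st2 74.3%, against a median of 3.41% over all broad stretches. Another 5 of the 9 were between 1.30% and 7.79%. More than 50% were repeated in 42 broad stretches, and 16 of these lay within 1.83 Mb of chromosome 4 (chr4:145254601-147082199), a cluster of zinc finger genes with Rex2, Zfp600 and Zfp534. Their part in the unequal H3K4Me1 was not tested. H3K4Me1 was also unequal in a 15.4 kb stretch inside the body of Dnmt1, the maintenance DNA methyltransferase (chr9:20727801-20743199). The mark covered 100% in XX and 41.6% in XY, and 0% of the 50-base stretches there were repeated.

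H3K27Me3, the Polycomb mark, overlapped 436 broad stretches in at least 1 list (27.9%, exact binomial 95% interval 25.7 to 30.2), beside 20.5% of all stretches held by both H3K27Ac lists. Here too a wider stretch meets more regions by width alone, and with a minimum width of 10 kb the share was 25.7%. H3K27Me3 was in both lists in 228, in XX only in 145 and in XY only in 63. The H3K27Me3 lists also differ in length, with 18270 XX and 14977 XY autosomal regions. The overlap was mostly partial: H3K27Me3 covered 4.70% of the bases in XX and 3.64% in XY, against 6.498% and 5.638% at 10 to 15 kb. At least 50% of the bases were covered in 48 stretches in 1 or both lists. In the stretch at Tbx3, a T-box factor (20.2 kb, chr5:120118601-120138799), H3K27Me3 covered 96.0% in XX and 100% in XY. At the start of Dnmt3b, a de novo DNA methyltransferase (17.6 kb, chr2:153461801-153479399), it covered 97.7% in each. The stretch 25.9 kb from the start of Otx2, a factor of primed pluripotency, had 66.0% and 78.0%. The lists were unequal at Lefty1, a Nodal antagonist (20.4% in XX and 76.6% in XY), and at Kdm6b, an H3K27 demethylase (43.0% in XX and 0% in XY), each as 1 list per sex. At Sox2 (34.6 kb) the shares were 35.8% and 46.8%. Whether both marks lay on the same chromosomes in the same cells cannot be read from lists of regions.

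A TSS of a protein-coding gene lay in 1089 broad stretches (69.8%, exact binomial 95% interval 67.5 to 72.1), beside 42.8% of all stretches held by both lists. A wider stretch also meets more gene starts by width alone. The share was 59.5% with a minimum width of 10 kb, 63.8% at 15 to 20 kb and 93.8% at 50 kb or more. Exactly 1 gene started in 748, 2 in 231, and 3 or more in 110. In all, 1539 of the 21418 autosomal protein-coding genes (7.19%) had a TSS of any transcript in a broad stretch. The 5′ end of the gene lay in one for 1379, and 551 genes lay in one from end to end. In 583 stretches with 1 gene and its 5′ end inside, the median length was 6.45 kb upstream of the start and 14.1 kb downstream of it, and 415 (71.2%) reached further downstream. The other 471 stretches held no protein-coding start, 204 of them inside a gene body, 60 partly in one and 207 between genes, with the nearest start at a median of 18.9 kb. Edges within 1 kb on both sides were found in 47.8% of the stretches between genes and 30.9% of those inside a gene body. The widest without a start were a 58.2 kb stretch in the body of Rbpms and one of 54.8 kb in the body of Sh3bp4. H3K27Me3 was met by 8.33% of the stretches inside a gene body and 30.4% of those between genes.

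**Figure D5:**
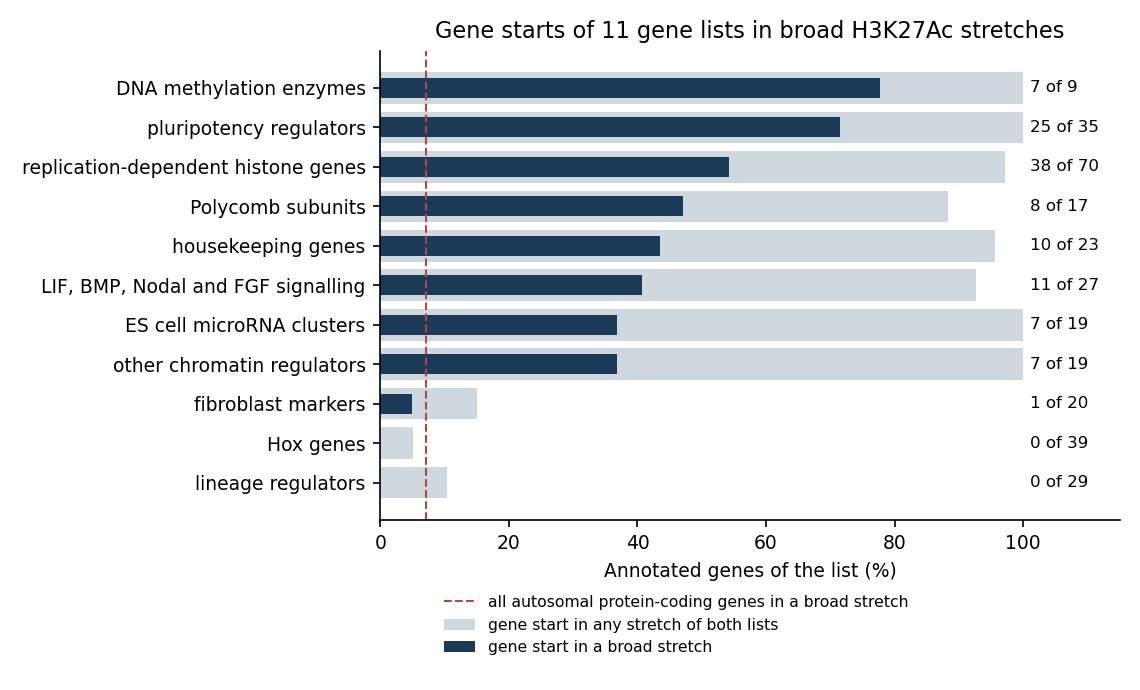
Genes of 11 lists (bars, percent of the annotated genes of each list) with a start in a broad stretch (dark) or in any stretch of both H3K27Ac lists (light), with the counts for broad stretches at the right and the share of all autosomal protein-coding genes, 7.19%, as a dashed line. Pluripotency regulators stand at 25 of 35 and lineage regulators at 0 of 29.

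Among gene lists, 25 of 35 pluripotency regulators (71.4%) had a TSS in a broad stretch, beside 7.19% of all autosomal protein-coding genes. Klf4, Prdm14, Zfp281 and Otx2 were nearest genes of broad stretches, and Nr5a2, Tcl1, Dppa3, Dppa4, Rif1 and Gdf3 started in narrower ones. The Klf5 stretch (72.0 kb, chr14:99690001-99761999) spanned 72.0 kb in XX and 71.6 kb in XY. That of Klf2 spanned 65.0 kb in XX and 62.6 kb in XY, and that of Esrrb, 63.2 kb wide, had 97.2% of its bases in both lists. Klf2, Klf4 and Klf5 are Krüppel-like factors that sustain self-renewal, and Esrrb belongs to the same network. For Nanog, a homeodomain factor, the spans were 37.2 kb in XX and 36.0 kb in XY, and for Pou5f1, a POU factor, 35.2 kb and 36.4 kb. At Sall4, a zinc finger factor, they were 61.4 kb and 56.0 kb, and at Dppa2 20.4 kb and 25.6 kb. Over the 36 stretches of this list, the median width was 26.4 kb, the median share of bases in both lists 91.6%, and both edges were within 1 kb in 20, against 20.2 kb, 86.2% and 628 of 1560 over all broad stretches. The XX span was wider in 21 and the XY span in 13. H3K4Me1 was in both lists in all 36. The median share of bases in both H3K27Ac lists was higher for housekeeping genes (93.3%) and histone genes (93.6%). It was lower for Polycomb subunits (90.6%), signalling genes (88.3%), DNA methylation enzymes (86.1%) and other chromatin regulators (79.3%). Both edges were within 1 kb in 6 of 11 housekeeping stretches and 1 of 7 of other chromatin regulators. The part of width in these shares was not tested.

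Some of these genes had several broad stretches. The start of Sox2 lay in one of 34.6 kb (chr3:34537401-34571999). Downstream, with nearest edges 76.3 kb and 99.3 kb from the start, lay broad stretches of 22.6 kb and 29.8 kb, 0.401 kb apart. Between them and the gene a stretch of 17.4 kb (chr3:34602601-34619999) had a region in the XX list only, and so was not counted among the 1560. It was 1 of 5 stretches of at least 15 kb held by a single list. The XY-only one was at Nrarp, with H3K27Me3 over 100% of it in both lists, and the other three were at Lima1, near Kcnk5 and near Gm7697, in the XX list. Near Klf4 a stretch of 34.6 kb had its nearest edge 48.2 kb from the gene start, with spans of 34.6 kb in XX and 29.6 kb in XY. Sall1 started in a stretch of 17.4 kb that adjoined another of 44.6 kb with 1 bp between them. Pairs of stretches 1 bp apart with at least 1 broad stretch numbered 32.

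Among signalling genes, 11 of 27 (40.7%) had a TSS in a broad stretch. Socs3, a feedback inhibitor of the LIF pathway (66.6 kb), spanned 66.6 kb in XX and 60.4 kb in XY, and Etv5, a target of FGF signalling (56.8 kb), 56.6 kb and 55.2 kb. Nodal, a TGF-beta family ligand, had 23.0 kb in XX and 24.8 kb in XY. The stretch of Ctbp2 and Fgfr2, an FGF receptor, spanned 38.8 kb in XX and 37.2 kb in XY. Fgfr2 was annotated from 137305965 to 140315033 on chromosome 7. Its place among the 11 rests only on the 5′ end of that long annotation. Stat3, Id1, Id3 and Dusp6 started in narrower stretches. Of the DNA methylation enzymes, 7 of 9 (77.8%) had a TSS in a broad stretch: Dnmt1, Dnmt3a, Dnmt3b, Dnmt3l, Tet1, Tet2 and Uhrf1, while Tet3 and Tdg started in narrower ones. Uhrf1, which recruits Dnmt1, spanned 32.4 kb in XX and 28.4 kb in XY, with 69.1% of the bases in both lists. Of the Polycomb subunits, 8 of 17 had one, with Cbx7, Jarid2 (61.8 kb), Phc1 (38.0 kb), Mtf2 and Suz12 (32.4 and 32.2 kb) among them. Ezh2, the methyltransferase, Ring1 and Rnf2 started in narrower stretches. Other chromatin regulators had 7 of 19, from Kdm4c, a demethylase (26.0 kb), to Hdac1, a deacetylase (15.4 kb in all, 15.4 kb in XX and 9.199 kb in XY).

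Housekeeping genes had a TSS in a broad stretch in 10 of 23 cases (43.5%), such as Hsp90ab1 (69.8 kb), Hspa8 (45.2 kb), Eef1a1 (34.8 kb) and Gapdh (21.0 kb), and 22 of 23 started in a stretch of both lists. Replication-dependent histone genes, which lie in clusters, had 38 of 70, held by 7 stretches, and copies of this family are near-identical. In the widest of these 7 (29.2 kb, chr13:23829001-23858199), 98.6% of the bases were in H3K27Ac in both lists, and H3K4Me1 covered 52.7% in XX and 91.1% in XY. None of 29 lineage regulators, such as Gata4, Sox17, Pax6 and T, and none of 39 Hox genes started in a broad stretch, and 3 and 2 of them started in any stretch of both lists. Over all 21418 autosomal protein-coding genes, 7.19% had a TSS in a broad stretch. By the 5′ end of the gene, 1379 started in a broad stretch and 8334 in a narrower one. Of the fibroblast markers, 1 of 20 (5%) had a TSS in a broad stretch, near the share over all genes, and it was Fn1, fibronectin. Which cells carried the mark there cannot be read from the lists. Of the 12 markers set for feeder cells, 1 was in a broad stretch (Fn1), Vim was in a narrower one, and the other 10, with Col1a1, Col1a2 and Thy1, were in no stretch of both lists.

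Broad stretches also lay over microRNA genes. Of 1468 autosomal microRNA genes, 81 started in a broad stretch, a lower share than the 1539 of 21418 protein-coding genes (7.19%). The broad stretch with the most hairpins (47.2 kb, chr7:3191601-3238799) held all 7 hairpins of the miR-290 cluster, the main microRNA cluster of ES cells, annotated between 3218627 and 3220842 on chromosome 7 of mm9. It spanned 46.6 kb in XX and 47.2 kb in XY, and its start was identical in both lists. H3K4Me1 covered 88.1% in XX and 86.4% in XY. Mature 3p sequences are shown from RefSeq (GRCm38.p6), except that of Mir292, with the seed, bases 2 to 8, in capitals, to show which members share one. The seed AAGUGCU is shared by 3 of them, miR-290a-3p and miR-291b-3p differ from it in the last seed base, and miR-293-3p has the seed GUGCCGC.
miR-291a-3p: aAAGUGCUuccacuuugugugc
miR-294-3p: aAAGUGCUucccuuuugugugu
miR-295-3p: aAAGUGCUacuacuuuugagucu
miR-290a-3p: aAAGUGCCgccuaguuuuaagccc
miR-291b-3p: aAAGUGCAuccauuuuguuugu
miR-293-3p: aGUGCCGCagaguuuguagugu
The hairpins Mir302a to Mir302d and Mir367, and those of the Mir17 cluster, lay in narrower stretches. Other broad stretches held Mir182, Mir183 and Mir96 (30.6 kb), Mir106b, Mir25 and Mir93 (16.2 kb), and Mir141 with Mir200c (17.999 kb).

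The base composition of the broad stretches differed from that of the genome and less from that of their surroundings. G and C made up 47.3% of the bases in broad stretches, 47.1% in narrower stretches held by both lists, 45.4% in the 15 kb on each side without H3K27Ac, and 41.9% in all autosomes. CpG occurred 15.05 times per kb in broad, 18.1 in narrower stretches and 11.03 in the surroundings. The Esrrb motif TCAAGGTCA occurred 4.08 times per 100 kb in broad stretches (1526 matches), 3.22 in narrower ones, 3.37 in the surroundings and 2.25 in the autosomes. The Klf motif CCACACCC occurred 12.4, 10.9, 9.51 and 6.499 times per 100 kb in the same order. The Stat motif TTCCNGGAA gave 3.31, 3.21, 2.76 and 2.66, and the Prdm14 motif GGTCTCTAA 0.857, 0.928, 0.709 and 0.696. The octamer ATTTGCAT, which is rich in A and T, went the other way, with 4.88, 5.82, 5.35 and 8.97. Of windows of 300 bases, 1.18% held the Esrrb motif in broad stretches and 0.649% in the autosomes. The shares were 3.50% and 1.83% for the Klf motif, 0.969% and 0.769% for the Stat motif, 0.249% and 0.203% for the Prdm14 motif and 1.39% and 2.57% for the octamer. The part of base composition in these densities was not tested.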

How the data were processed

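Histone marks had been profiled by ChIP-seq in XX and XY mouse ES cell lines, with 50-base reads. The authors aligned reads to mm9 (Bowtie2 and Bedtools in the methods, Bowtie and deepTools in the submitters' processing notes). They deposited 1 list of regions per sex and mark, and its values are the start and end positions of the regions in base pairs, with no other score. How regions were called, at which threshold, and whether the 2 lines were pooled is not given in the sources used here. Methods and labels differ on the sequencer and on the last passage. The unit of analysis was the merged stretch of both H3K27Ac lists, with no gap allowed.

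Python 3.11.15 with numpy 2.4.6, scipy 1.17.1 and pandas 2.3.3 was used, and the merging was checked with bedtools 2.31.1 and tested on simulated data. Sequences were read from mm9 with samtools 1.23.1. Genes came from the annotation of that build, and a TSS was the start of any annotated transcript of a gene. An overlap was at least 1 bp. Since each sex and mark has 1 list without counts, no test was made, and intervals are exact binomial (Clopper-Pearson, 95%) and cover counting error only. The depth is unknown.

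The members and the gene lists were chosen with earlier results of these data known. Genes were named if inside or nearest the 20 widest stretches, in a gene list with a start in or nearest to a broad stretch, at the 10 largest total edge differences or the widest stretches with identical edges, or at the 3 stretches on each side of 15 kb. Genes named for H3K4Me1 missing or unequal, for H3K27Me3, for the repeated cluster on chromosome 4, for a start in 1 list only, as the widest without a start, or for other microRNAs were chosen after their values were seen. Kmt2d, Sox1 and Hprt were not analysed here. Some items that meet the naming rule are not reported here. The alternatives were other minimum widths, merging distances, edge distances and overlap criteria.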

Additional observations from a re-analysis of the deposited data

How the results depend on the processing

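The number of broad stretches was 3349 with a minimum width of 10 kb, 789 with 20 kb, and 761 when a single region of at least 15 kb was required in each list. Under these 3 settings, in that order, the bases covered in both lists came to 81.5%, 86.8% and 90.1%, H3K4Me1 in both lists to 97.4%, 99.9% and 99.9% of stretches, and a protein-coding TSS to 59.5%, 75.7% and 73.7%. With a single wide region in each list, both edges were within 1 kb in 48.4% and H3K27Me3 was met by 25.6%. Merging regions up to 1 kb apart gave 81.4% of bases in both lists. An edge distance of 400 bp gave 16.7%, and stretches with 1 region in each list gave 36.0%. H3K4Me1 over at least 50% of the bases in each list was found in 98.3%. H3K27Me3 was found in 12.0% when it had to cover 20% of the bases in either list, and in 14.6% when both lists had to overlap. The TSS share was 75.2% with all annotated genes and 74.2% with a TSS inside or within 5 kb. The other 2 alternatives were chosen after seeing the data: merging regions 1 bp apart gave 84.3% of bases in both lists, and leaving out stretches with over 20% repeated 50-base sequences gave 84.5%. The causes were not tested.

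No paired analysis was possible because each sex and mark has 1 list and no result comes from a test, and for the same reason no replicate was left out. Region lists without heights do not show how far a missing region was below the threshold.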
